A study of Mus musculus with 6 samples.

Results

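Troponin and tropomyosin are the calcium switch of the thin filament. The genes described here were the 3 subunits of cardiac troponin, *Tnnt2* (troponin T), *Tnni3* (troponin I) and *Tnnc1* (troponin C), and the 4 tropomyosin genes *Tpm1*, *Tpm2*, *Tpm3* and *Tpm4*. They were taken by symbol, and all 7 were present among the 13003 genes with values and among the 12955 genes tested. In striated muscle a tropomyosin dimer lies along the actin filament and covers the sites where myosin heads attach. When calcium binds troponin C, the hold of troponin I on actin is released, and tropomyosin, to which troponin T anchors the complex, moves aside. Tropomyosins outside the sarcomere, many of them made from *Tpm3* and *Tpm4*, coat cytoplasmic actin filaments in most cell types, and *Tpm2* is abundant in slow skeletal and in smooth muscle.

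RNA-seq had been performed on ventricular myocardium of 3 WT mice (replicates 1, 3 and 4) and 3 *Dst-b* mutant mice (replicates 1, 2 and 3), all aged 14 to 19 months. *Dst-b* is the muscle isoform of dystonin, a cytoskeletal linker protein. The mutants were homozygotes from heterozygous crosses, and carried a genome-edited nonsense mutation in an exon that only *Dst-b* uses, so a truncated protein can still be made. The study kept several lines of this allele and used both sexes. The line and the sex behind each library were not given in the sources used here.

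A library held between 40693854 and 57580110 tags, and each was from a separate mouse. All transcripts of *Dst*, summed, were 448 ± 25.2 CPM (SD, n = 3) with the WT genotype and 430 ± 24.1 CPM (n = 3) with the mutant one, a sum that does not check a nonsense allele. CPM is a count relative to the total tags of its library, scaled with TMM factors. Markers of ventricular cardiomyocytes (*Myh6*, *Actn2*, *Ryr2*, *Pln* and *Myl2*) summed to between 56135 and 57190 CPM for WT and to between 54483 and 61576 CPM for mutant hearts, and none of the 5 was called. In bulk tissue, fewer cells of a type and less RNA per cell cannot be told apart.

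The 4 tropomyosin genes are similar in sequence, so reads could in principle be shared between them. Their most similar stretch of coding sequence within 1 exon is shown for GRCm38 (GENCODE transcripts), 60 bases each, with capitals at the bases that differ from *Tpm1*. It lies at chr9:67036003-67036062 on the minus strand for *Tpm1*, at chr4:43519619-43519678 on the minus strand for *Tpm2*, at chr3:90086512-90086571 on the plus strand for *Tpm3* and at chr8:72138654-72138713 on the plus strand for *Tpm4*.
Tpm1: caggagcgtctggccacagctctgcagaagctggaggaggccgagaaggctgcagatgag
Tpm2: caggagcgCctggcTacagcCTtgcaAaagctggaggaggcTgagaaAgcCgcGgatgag
Tpm3: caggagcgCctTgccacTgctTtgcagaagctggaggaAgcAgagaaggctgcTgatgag
Tpm4: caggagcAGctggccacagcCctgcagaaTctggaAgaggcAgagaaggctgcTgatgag

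Even here, *Tpm2* differed from *Tpm1* at 9 bases and *Tpm3* and *Tpm4* at 7 bases each. Over the aligned coding sequence the pairs were 68.2% to 76.8% identical. The longest run of identical bases between transcripts of 2 of the genes was 37, between *Tpm1* and *Tpm2*, and no pair shared a window as long as a 150-base read. *Tpm3* was the exception with respect to another locus. It shared a run of 628 bases with *Tpm3-rs7*, a related sequence that has no row in the tables, and its reads may therefore be counted with some uncertainty.

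The members fell into an abundant and a scarce set in all 6 libraries. Levels between genes are compared per length, as RPKM (reads per kilobase of exon, relative to library size). *Tnnt2* was the most abundant at 15454 ± 802 RPKM (SD, n = 3) in WT hearts, where *Tnni3* stood at 12226 ± 825, *Tnnc1* at 5231 ± 201 and *Tpm1* at 4501 ± 77.0. By mean RPKM over all libraries, *Tnnt2* ranked 2 and *Tnni3* 3 among the 13003 genes, *Tnnc1* 8 and *Tpm1* 11. *Tpm4* followed at 84.5 ± 7.04 RPKM, *Tpm3* at 19.5 ± 0.289 and *Tpm2* at 15.7 ± 1.09 in WT. Along this order, the ranges of *Tnnc1* (4429 to 5348 RPKM over 6 libraries) and *Tpm1* (3891 to 4577) overlapped, although *Tnnc1* was above *Tpm1* within each of the 6 libraries. No other neighbours overlapped, and *Tpm3* lay above *Tpm2* by the narrowest margin, 17.4 to 21.7 against 11.7 to 17.2 RPKM. The order depends on the exon length used, which was 3649 bases for *Tpm1* and 703 for *Tnnc1*. By counts not divided by length, *Tpm1* ranked 4 and *Tnnc1* 21 among the genes tested. Together the 7 genes took between 4.54% and 5.02% of a library's tags.

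**Figure D1:**
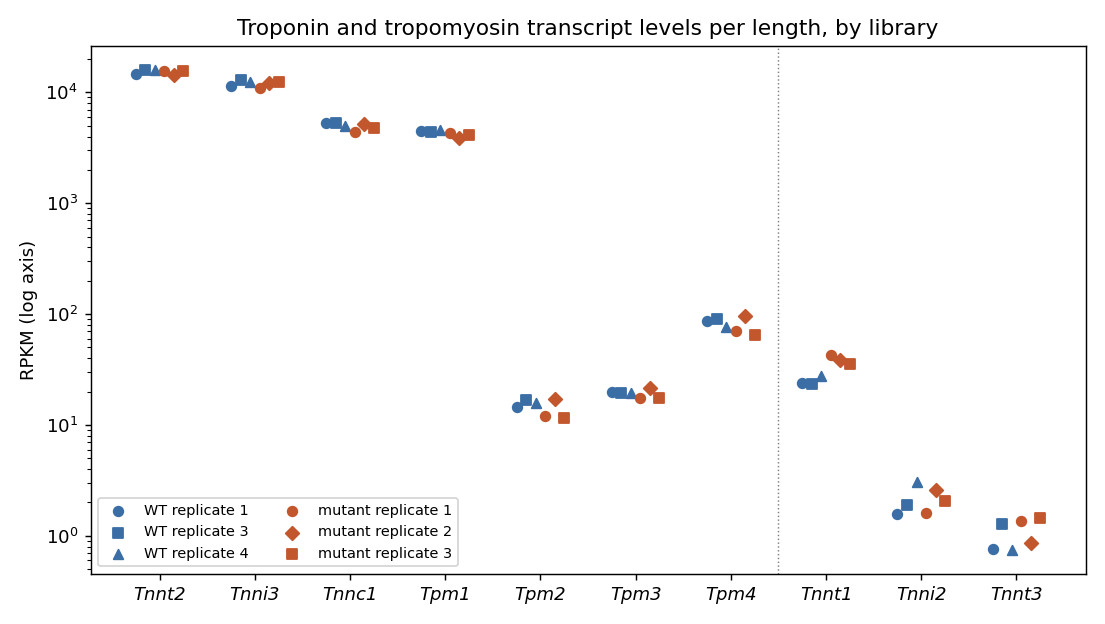
Level per length (RPKM, log axis) of each member and, right of the dotted line, of the other troponin genes, with 1 point per library, WT in blue and *Dst-b* mutant in orange. *Tnnt2*, *Tnni3*, *Tnnc1* and *Tpm1* sat above 3891 RPKM in every library, and *Tpm4*, *Tpm3* and *Tpm2* at or below 95.5 RPKM.

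The comparison of genotypes asked whether the *Dst-b* mutation altered transcript levels in the heart. None of the 7 members was called between WT and mutant hearts (edgeR's two-sided quasi-likelihood test, with calls at p under 0.01 and, after Benjamini-Hochberg adjustment over all genes, under 0.1). Over all genes tested, 601 of 12955 (4.64%) were called. At an unadjusted p under 0.05 stood 1 member, against 16.5% of all genes, and DESeq2, edgeR's exact test and limma called 0 members as well. All 7 log2 fold changes were below 0, where 50% of all genes were. Their median was -0.14, and that over all genes was 0.00. The 95% intervals of the members ran from -0.52 at the lowest to 0.13 at the highest.

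The troponin subunits came first by role. For *Tnnt2*, which ties the complex to tropomyosin (chr1:135836315-135852268, plus strand, GRCm38.p6), WT replicates 1, 3 and 4 held 17691, 19372 and 19330 CPM, and mutant replicates 1, 2 and 3 held 18401, 17007 and 19375 CPM. The groups overlapped throughout, with mutant replicate 2 lowest and mutant replicate 3 highest of the 6. Its log2 fold change was -0.04 (SE 0.06, adjusted p = 0.799), a mutant level of 0.971 times WT with a 95% interval of 0.881 to 1.07.

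For *Tnni3*, the inhibitory subunit (chr7:4518305-4522718, minus strand), CPM were 9398, 10717 and 10252 in WT and 8872, 9754 and 10432 in mutant hearts. Here mutant replicate 1 was lowest and WT replicate 3 highest, and the groups overlapped. The log2 fold change was -0.06 (SE 0.07, adjusted p = 0.720), or 0.957 times WT with a 95% interval of 0.856 to 1.07.

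For *Tnnc1*, the calcium-binding subunit (chr14:31208312-31211729, plus strand), CPM were 3785, 3775 and 3539 in WT and 3061, 3601 and 3415 in mutant hearts. Mutant replicates 1 and 3 lay below every WT library and mutant replicate 2 lay within the WT range. The difference on the log2 scale was -0.14 (SE 0.07, adjusted p = 0.339), or 0.908 times WT with a 95% interval of 0.819 to 1.01.

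*Tpm1*, the tropomyosin of the cardiac sarcomere (chr9:67022590-67049672, minus strand), was the one member whose groups did not overlap. Its CPM were 16549, 16204 and 16823 in WT and 15360, 13979 and 15477 in mutant hearts, so that every mutant library was below every WT library. Groups did not overlap for 1 of 7 members and for 21.9% of all genes tested. Its log2 fold change was -0.15 (SE 0.06, unadjusted p = 0.0259, adjusted p = 0.226), or 0.904 times WT with a 95% interval of 0.829 to 0.985. It was not called.

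The 3 scarce tropomyosins shared a pattern over the libraries, in which mutant replicate 2 was the highest of all 6 and mutant replicates 1 and 3 the lowest. For *Tpm2* (chr4:43513726-43523583, minus strand), WT replicates 1, 3 and 4 held 28.9, 33.1 and 30.9 CPM and the mutant ones, in the order 1, 2 and 3, held 23.1, 33.2 and 23.4 CPM. The log2 fold change was -0.22 (SE 0.13, adjusted p = 0.458), or 0.859 times WT with a 95% interval of 0.698 to 1.06.

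For *Tpm3* (chr3:90072651-90100902, plus strand), CPM were 50.1, 48.8 and 48.8 in WT, a narrow range, and 43.5, 53.4 and 44.4 in mutant hearts. The difference on the log2 scale was -0.06 (SE 0.09, adjusted p = 0.773), or 0.957 times WT with a 95% interval of 0.838 to 1.09.

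For *Tpm4* (chr8:72135288-72153142, plus strand), CPM were 180, 190 and 161 in WT and 145, 196 and 138 in mutant hearts. Its log2 fold change was -0.15 (SE 0.12, adjusted p = 0.602), or 0.903 times WT with a 95% interval of 0.748 to 1.09. The spread among mutant libraries exceeded that among WT libraries for all 3 genes, with SDs of 5.73 against 2.10 CPM for *Tpm2*, 5.46 against 0.764 CPM for *Tpm3* and 31.4 against 14.5 CPM for *Tpm4*. This was not particular to them. The mutant SD was also the larger for *Tnnt2* (1190 against 958 CPM), *Tnni3* (782 against 669), *Tnnc1* (274 against 139) and *Tpm1* (834 against 310).

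**Figure D2:**
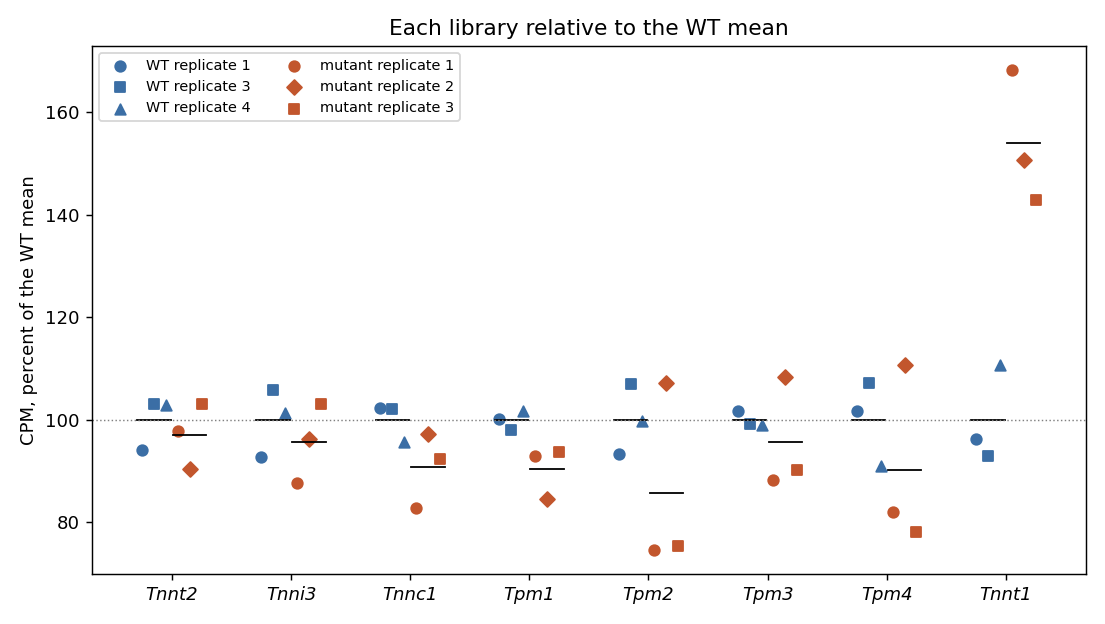
CPM of each member and of *Tnnt1* in each library, as a percent of the WT mean, with black bars at the group means (n = 3 each). Mutant replicate 2 (diamond) reached 107% for *Tpm2*, 108% for *Tpm3* and 111% for *Tpm4*, while mutant replicates 1 and 3 stood between 74.7% and 90.3% for these genes. All mutant libraries were below all WT libraries for *Tpm1* and above them for *Tnnt1*.

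The calls of *Tpm2* and *Tpm4* turned on that library. Without mutant replicate 2, *Tpm2* was called lower at a log2 fold change of -0.42 (adjusted p = 0.0616) and *Tpm4* at -0.33 (adjusted p = 0.0868), both from edgeR's quasi-likelihood test, so that 2 of 7 members were called lower where 1.62% of all genes were. *Tpm3* was at -0.17 without it and was not called. Leaving out any of the other 5 libraries called 0 members. *Tnnt2* came to 0.00 without mutant replicate 2, so its sign is not fixed by these data. By rank, mutant replicate 2 was the highest of the 6 libraries for 16.1% and the lowest for 16.6% of all genes tested. These counts do not measure how far it deviated. Of the members it was the highest for 3 and the lowest for 2, *Tnnt2* and *Tpm1*.

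**Figure D3:**
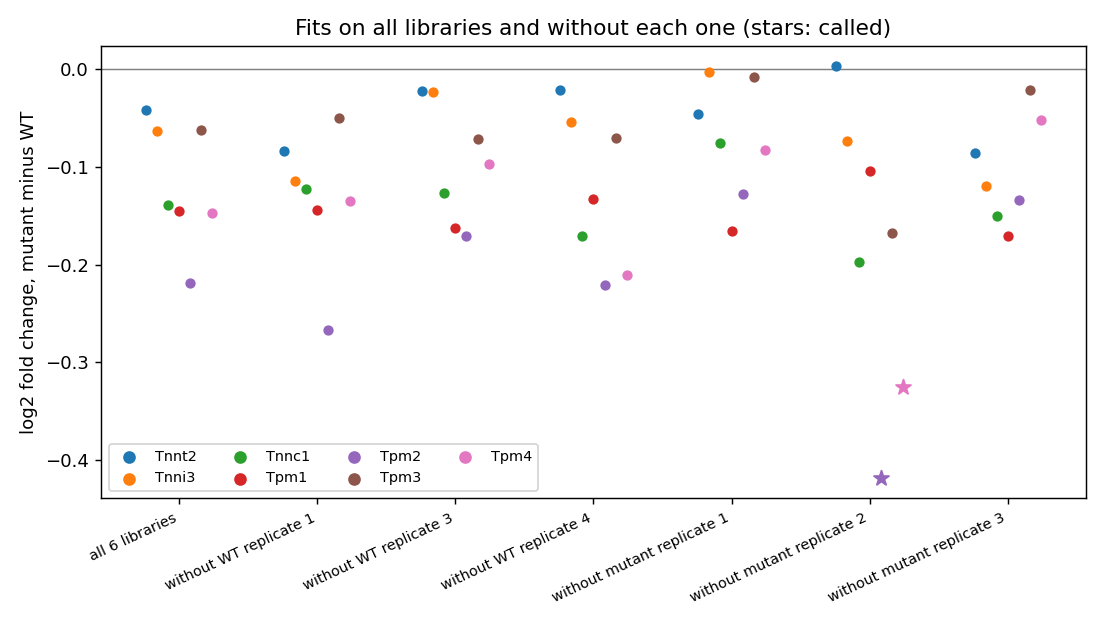
Log2 fold change (mutant minus WT) of each member with all 6 libraries and with each library left out in turn, where a star marks a call. Stars appear only without mutant replicate 2, for *Tpm2* at -0.42 and *Tpm4* at -0.33.

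Markers of other cell types that express these tropomyosins are given beside this pattern. The smooth muscle markers *Myh11*, *Cnn1*, *Tagln*, *Smtn* and *Acta2* summed to 368 to 383 CPM in WT and to 464, 524 and 427 CPM in mutant replicates 1, 2 and 3. *Acta2* alone of the 5 was called, higher at 72.7 ± 7.27 against 184 ± 20.7 CPM (n = 3 each). *Myh11*, the smooth muscle myosin, was at 85.4, 73.6 and 67.5 CPM for WT hearts and at 72.2, 90.6 and 55.4 CPM for mutant ones. Of the 5, *Myh11* and *Acta2* were highest in mutant replicate 2, *Cnn1* in mutant replicate 1, *Tagln* in WT replicate 3 and *Smtn* in WT replicate 4. Pericyte markers summed to 810 to 880 CPM for WT and 593, 706 and 644 CPM for the mutants, and 5 of 6 were called lower (*Rgs5*, *Kcnj8*, *Abcc9*, *Pdgfrb* and *Vtn*). Of fibroblast markers 1 of 8 (*Col1a1*) was called higher and of endothelial markers 1 of 6 (*Tie1*) was called lower. Of macrophage and conduction system markers none was called. Over all genes tested, 2.8% were called higher and 1.84% lower. The study itself picked *Acta2*, *Col1a1*, *Tie1*, *Kcnj8*, *Abcc9*, *Pdgfrb* and *Vtn* from these libraries, so these counts are no independent evidence. The part of these cell types in the tropomyosin levels was not tested.

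Within each library, *Tpm1* supplied nearly all tropomyosin transcript. Its share of the summed RPKM of the 4 genes came to 97.4, 97.2 and 97.6% for WT replicates 1, 3 and 4, and for mutant replicates 1, 2 and 3 to 97.7, 96.7 and 97.8%. The mean was 97.4% in both genotypes (SD 0.203 in WT and 0.626 in mutant hearts, n = 3 each). *Tpm4* made up 1.83 ± 0.179% in WT and 1.84 ± 0.463% in mutant, *Tpm3* 0.423 ± 0.00938% and 0.450 ± 0.0762%, and *Tpm2* 0.340 ± 0.0271% and 0.325 ± 0.0882%. Exact permutation tests over the 4 shares, two-sided, gave p from 0.8 to 1 (adjusted p = 1 for each, n = 3 per genotype), and 3 against 3 libraries cannot go below 0.1.

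Mutant replicate 2 held the highest shares of the scarce tropomyosins, 2.37% for *Tpm4*, 0.538% for *Tpm3* and 0.427% for *Tpm2*. The other mutant libraries held 1.53% and 1.62% for *Tpm4*, 0.403% and 0.409% for *Tpm3*, and 0.274% and 0.275% for *Tpm2*.

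The ratios of subunits within a library do not depend on scaling between libraries. *Tnni3* stood at 0.791 ± 0.0190 of *Tnnt2* by RPKM in WT and at 0.781 ± 0.0677 in mutant hearts (n = 3 each). *Tnnc1* stood at 0.339 ± 0.0268 of *Tnnt2* in WT and at 0.318 ± 0.0410 in mutant. The summed tropomyosins relative to the summed troponins differed by -0.08 on the log2 scale between genotypes (mutant minus WT). Over the 6 log2 ratios compared, the smallest exact permutation p was 0.3 and adjusted p-values were 1 for each ratio, and no ratio passed the test.

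The other troponin genes encode the subunits of skeletal muscle fibres. *Tnnt1*, troponin T of slow fibres (chr7:4504569-4515975), was called higher in mutant hearts. Its CPM were 23.7, 22.9 and 27.3 in WT and 41.4, 37.1 and 35.2 in mutant hearts. These groups did not overlap, as for 21.9% of all genes tested. The log2 fold change was 0.62 (SE 0.09, adjusted p = 0.0106), or 1.54 times WT with a 95% interval of 1.33 to 1.78. It was called with each single library left out (log2 fold changes of 0.55 to 0.70). *Tnnt1* is among the genes that the study itself picked from these libraries, so its direction is no independent evidence.

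*Tnnt1* lies 2329 bases from *Tnni3* on chromosome 7, and of these neighbours *Tnnt1* was called higher while *Tnni3*, at -0.06, was not called. Despite its rise, *Tnnt1* made up 0.162 ± 0.0144% of the summed RPKM of the 3 troponin T genes in WT and 0.257 ± 0.0288% in mutant hearts (n = 3 each). The remainder was almost all *Tnnt2*, at 99.8 ± 0.0127% and 99.7 ± 0.0280%, without overlap between groups. The exact permutation test of that share gave p = 0.1, the smallest possible, and an adjusted p of 0.2 over the 2 troponin shares.

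The fast-fibre genes were close to the detection filter. *Tnni2* had 1.56 ± 0.555 CPM for WT against 1.47 ± 0.351 CPM for mutant hearts (n = 3 each), and *Tnnt3* at 0.991 ± 0.316 and 1.29 ± 0.347 CPM, and neither was called. *Tnni3* was over 99.9% of the summed RPKM of *Tnni2* and *Tnni3* in every library (99.98% on average in both genotypes). *Tnni1* and *Tnnc2* were not analysed here. Of the skeletal fibre markers, *Atp2a1*, *Actn3* and *Mylpf* were under 2 CPM in every library, whereas *Myl1* had 46.8, 72.9 and 42.9 CPM for WT and 110, 51.8 and 85.6 CPM for mutant hearts and was not called. *Pvalb*, which did not pass the filter and was not tested, had 0.491, 0.789 and 0.583 CPM for WT hearts and 2.01, 1.23 and 0.829 CPM for mutant ones. Its groups did not overlap, as for 21.9% of all genes tested. The part of skeletal fibres in the level of *Tnnt1* was not tested. Atrial markers summed to 231, 1098 and 275 CPM for WT replicates 1, 3 and 4 and to 885 to 1023 CPM in mutant hearts, a sum in which *Nppa* was the largest term. None of the 4 tested was called. *Nppa* was at a log2 fold change of 1.39 (SE 0.54). It had 119, 671 and 144 CPM in WT and 877, 926 and 639 CPM in mutant hearts, so WT replicate 3 overlapped the mutants. The study itself picked *Nppa* as higher from these libraries, and also reported it raised in mutant hearts by qPCR and in situ hybridisation. *Myl7*, *Myl4* and *Sln* were at -0.80 (SE 0.56), -0.71 (SE 0.59) and -0.73 (SE 0.72). Each of *Myl7*, *Myl4* and *Sln* was highest in WT replicate 3, at 144, 241 and 35.3 CPM.

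Among the tropomodulins and leiomodins, which cap the pointed end of the thin filament or promote its elongation and bind tropomyosin, 2 of 7 were called higher and 1 lower, where 2.8% and 1.84% of all genes were. *Lmod2*, a leiomodin of the heart, rose from 665, 629 and 544 CPM in WT to 840, 709 and 878 CPM in mutant hearts (log2 fold change 0.40, SE 0.09, edgeR adjusted p = 0.0586). *Tmod1*, the tropomodulin of cardiac thin filaments, rose from 379, 392 and 398 CPM to 445, 439 and 482 CPM (0.22, SE 0.06, edgeR adjusted p = 0.0836). *Tmod4*, a tropomodulin of skeletal fibres, fell from 52.7, 46.1 and 65.8 CPM to 40.5, 28.9 and 40.3 CPM (-0.59, SE 0.15, edgeR adjusted p = 0.0815).

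The groups did not overlap for any of these 3 genes, as for 21.9% of all genes tested. The 3 were named because they were called, and the calls were near the threshold. That of *Lmod2* was lost without WT replicate 3, WT replicate 4, mutant replicate 1 or mutant replicate 3, that of *Tmod1* without any library but mutant replicate 2, and that of *Tmod4* without any library but WT replicate 3. *Tmod1* was also not called by edgeR's exact test (adjusted p = 0.111). The study itself picked *Lmod2* and *Lmod3* from these libraries, so this count is no independent evidence. The median log2 fold change of the list was 0.01.

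Of 12 genes of thin filament actin, the nebulin family and actin assembly, 2 were called, both higher, where 2.8% of all genes were. *Actc1*, the actin of the cardiac sarcomere, rose from 8514 ± 258 to 10312 ± 893 CPM (n = 3 each, log2 fold change 0.28, SE 0.07, edgeR adjusted p = 0.0652). *Cap2*, a cyclase-associated protein that acts on actin monomers and cofilin, rose from 175 ± 7.25 to 210 ± 1.07 CPM (0.27, SE 0.06, edgeR adjusted p = 0.0434). *Actc1* lost its call in limma (adjusted p = 0.112 with a pseudocount of 0.5) and without WT replicates 1, 3 or 4 or mutant replicate 1, and *Cap2* without WT replicates 1 or 4 or mutant replicate 1. The study itself picked *Actc1* and *Cap2* from these libraries, so this count is no independent evidence. The median of the list was 0.06. *Actc1* was above, and *Tpm1* below, every WT library in each mutant library. Groups did not overlap for 21.9% of all genes tested.

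Of 10 splicing regulators of troponin T or tropomyosin transcripts, *Rbfox1* alone was called, lower, where 1.84% of all genes were. It fell from 40.0 ± 0.939 to 30.1 ± 2.45 CPM (n = 3 each, log2 fold change -0.41, SE 0.08, edgeR adjusted p = 0.0282), a call lost without mutant replicate 1, and the list's median was 0.05. Which exons of *Tnnt2* or of the tropomyosins were used cannot be read from values summed over a gene.

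Of 10 transcription factors of sarcomere and actin genes, none was called, with a median of -0.01. The smallest p belonged to *Mkl2*, a coactivator of serum response factor, at a log2 fold change of 0.30 (edgeR adjusted p = 0.173), and to *Mef2a* at -0.21 (edgeR adjusted p = 0.345). Of 11 cytoplasmic actin filament partners of tropomyosin, none was called, with a median of -0.08. The smallest p belonged to *Zyx*, a focal adhesion protein, at 0.19 (edgeR adjusted p = 0.226), and to *Myl12a*, a regulatory light chain of non-muscle myosin, at 0.18 (edgeR adjusted p = 0.234).

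**Figure D4:**
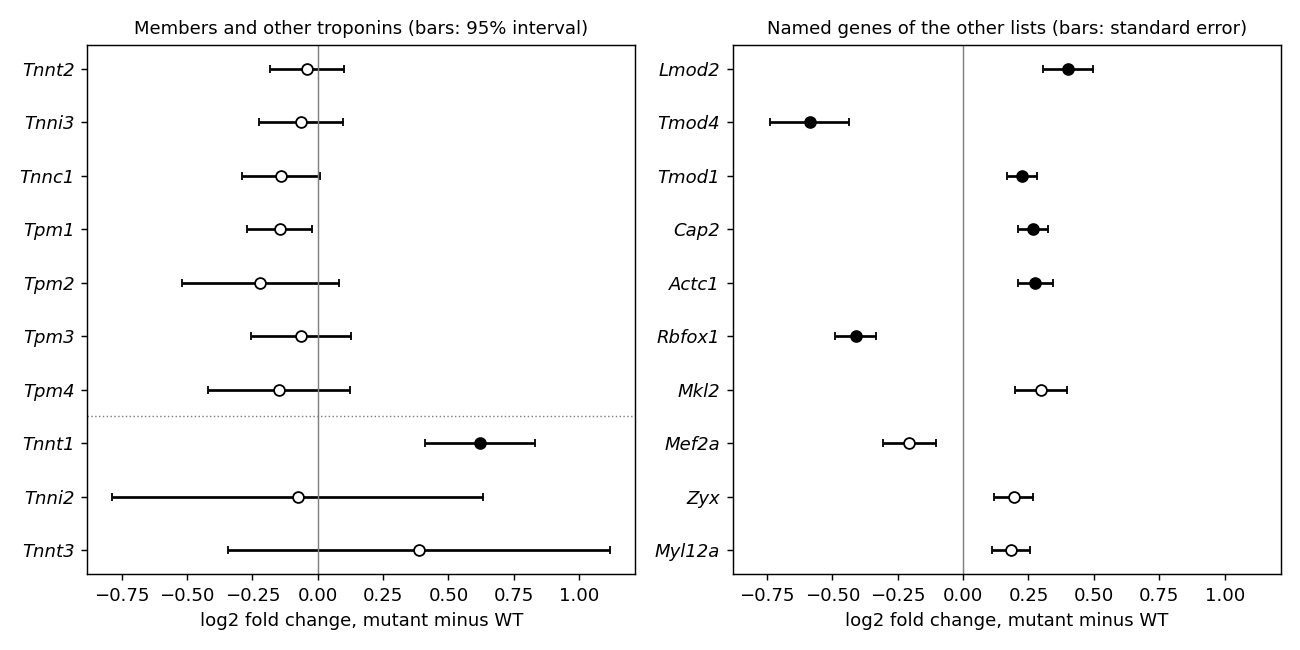
Log2 fold change (mutant minus WT) of the members and other troponin genes with 95% intervals (left) and of the named genes of the other lists with standard errors (right), with filled points for called genes. The intervals of 6 members crossed 0, and that of *Tpm1* ended at -0.02 without a call.

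The members did not vary as a single group over the libraries. Correlations of log2(CPM + 0.5) over the 6 libraries are descriptions, since the points share 2 genotypes and mutant replicate 2 carries much of the spread. *Tpm2*, *Tpm3* and *Tpm4* were close to each other, at r of 0.896 to 0.914, and *Tnnc1* was at 0.756 to 0.779 with them. *Tpm1* was at 0.01 with *Tpm2*, -0.20 with *Tpm3* and -0.15 with *Tpm4*, and at 0.610 with *Tnnt2*.

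Among 8703 other genes with a mean of at least 10 CPM, those most like *Tpm1* were *Mme* (r = 0.999), *Acsf2* (0.997) and *Tomm40l* (0.996), of which *Mme* and *Acsf2* were called lower. Those most like *Tpm2* were *Dennd3* (0.990), *Myo1e* (0.986) and *Tmem165* (0.977), those most like *Tpm3* were *Tbx3* (0.982), *Impdh2* (0.976) and *Sept11* (0.966), and those most like *Tpm4* were *Lzts2* (0.991), *Slc2a1* (0.987) and *Phka1* (0.984). For the troponins they were *Dcun1d5* (0.990), *Asnsd1* (0.982) and *Dhps* (0.980) with *Tnnt2*, *Agpat2* (0.971), *Nudt8* (0.965) and *Scrib* (0.965) with *Tnni3*, and *D19Wsu162e* (0.989), *Cpox* (0.989) and *P2rx4* (0.988) with *Tnnc1*. Apart from *Mme* and *Acsf2*, none of these genes was called.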

How the data were processed

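Poly-A RNA of the hearts was sequenced as paired-end reads. The methods name a TruSeq protocol and the labels another kit. The authors aligned them with OLego (GRCm38/mm10) and counted with Quantas. Per gene they deposited estimated counts (tags) and the RPKM, the latter used here for levels, shares and ratios only. Not whole in 8.45% to 13.8% of the genes of a library, *Tnnt2*, *Tnni3* and *Tpm1* among them in all libraries, tags were rounded for the test. It is not stated if tags are reads or pairs.

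Genes reaching 1 CPM in 3 or more libraries were tested with edgeR 4.0.16 in R 4.3.3 (TMM, glmQLFit, glmQLFTest, genotype as the only term). A call required p under 0.01 and a Benjamini-Hochberg adjusted p under 0.1, the thresholds of the study. The 95% intervals come from that fit. The test was first tested on simulated data. There it recovered 23.2% of changes of 1.25-fold, 72% of 1.5-fold and 100% of 3-fold, with 28 false calls among 12886 genes fitted. Shares and ratios were compared by exact permutation (scipy 1.17.1). Alternatives included DESeq2 1.42.0, limma 3.58.1, other scalings and leaving out each library. Positions are from RefSeq. The members and lists were chosen with earlier results of these data known. Named were all members, the other troponin genes, in each list reported up to 4 called genes with the smallest p (2 where none was called), and the 3 genes most correlated with each member. The marker genes given with values were named after their values were seen. Another list, with 2 genes called higher, is not reported here, though counts over all listed genes include it.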

Additional observations from a re-analysis of the deposited data

How the results depend on the processing

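No member was called under median-of-ratios, library-total or upper-quartile scaling, without a filter, with a mean CPM of at least 5, by DESeq2, by edgeR's exact test, by limma with either pseudocount (0.5 or 1) or at an adjusted p under 0.05. Leaving out 1 library at a time called 0 to 2 members, the 2 being *Tpm2* and *Tpm4* without mutant replicate 2. With all libraries, 9 of the 72 other listed genes tested were called, where 4.64% of all genes were. The study itself picked *Tnnt1*, *Lmod2*, *Actc1* and *Cap2* among them from these libraries, so this count is no independent evidence. At an adjusted p under 0.05, 5 were called (2.35% of all genes). Leaving out 1 library left 2 to 9 of the other listed genes called. These were 4 without WT replicate 4, where 2.84% of all genes were called, and 2 without mutant replicate 1, where 1.1% were. For the shared replicate numbers 1 and 3, correlations of same-numbered deviations were 0.00724 and -0.0492. These 2 values are too few to decide whether the libraries were paired. Entered as a replicate block, the replicate numbers leave the genotype term to 4 libraries, replicates 1 and 3 of each genotype. WT replicate 4 and mutant replicate 2 are alone in their blocks and add nothing to that term. The block thus repeats the removal of mutant replicate 2 and is not a separate check. Under it 2 members were called, *Tpm2* at a log2 fold change of -0.41 and *Tpm4* at -0.38, where 3.53% of all genes were called lower. Of the other listed genes 14 were called, where 7.46% of all genes were called in either direction. *Tnnt2* turned to 0.0285 under the block and ranged from -0.0859 to 0.00219 (without mutant replicate 2) as libraries were left out, and *Tnni2* turned to 0.0539 under the block and ranged from -0.268 to 0.251 as libraries were left out. Shares and ratios kept their sign when computed from tags. As libraries were left out, the difference in share (percentage points, mutant minus WT) ranged from -0.224 to 0.338 for *Tpm1* and -0.0657 to 0.0109 for *Tpm2*. This difference ranged from -0.0168 to 0.0506 for *Tpm3*, -0.256 to 0.166 for *Tpm4* and -0.00323 to 0.00227 for *Tnni3*. The difference in log2 ratio to *Tpm1* (mutant minus WT) ranged from -0.312 to 0.0166 for *Tpm2*, -0.0631 to 0.153 for *Tpm3* and -0.218 to 0.107 for *Tpm4*. The difference in log2 ratio of *Tnni3* to *Tnnt2* ranged from -0.0790 to 0.0462. With 3 libraries per genotype, a member without a call may still differ by as much as its 95% interval allows.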
